A study of Rattus norvegicus with 2 samples.

Results

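Among the probe sets of a rat expression array that name a drug-metabolizing enzyme, 146 of 8799 in all were examined. They were chosen by name, as those whose platform annotation gives 1 gene symbol beginning with Cyp and a digit, Gst, Ugt, Sult or Ephx. They stand for 82 genes. This rule, like the lists used below, was set with earlier results of these data known. There was 1 array of RNA from hippocampal synaptosomes, which are nerve endings torn off and resealed during fractionation, often with a piece of the postsynaptic membrane, and 1 array of RNA from the total hippocampus. Both came from Sprague Dawley rats at postnatal day 70, for which the labels name no treatment, and the number of animals behind either array is not given there. Each value is therefore a single measurement with no replicate, and no test between the arrays was possible.

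Cytochrome P450 enzymes (Cyp) insert oxygen into drugs, steroids and fatty acids, and epoxide hydrolases (Ephx) open the reactive epoxides that some of these oxidations leave. Glutathione S-transferases (Gst), UDP-glucuronosyltransferases (Ugt) and sulfotransferases (Sult) then attach glutathione, a sugar acid or sulfate, which makes the products easier to export. Many P450s serve mainly the liver, while a smaller set works in brain, among them enzymes of cholesterol and neurosteroid metabolism and the transferases that glial cells use against oxidized lipids.

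A signal counted as above background when it exceeded the size that 95% of an array's negative values stay within. In the authors' linear intensity units this limit was 2912.6 for synaptosomes and 5280.25 for total hippocampus. By this measure 28 of the 146 probe sets were above background in synaptosomes and 18 in the total hippocampus. These were 19.2% and 12.3% of the probe sets, against a background of 23.9% and 14.7% over all 8740 non-control probe sets. By gene, 22 of 82 had a probe set above background in synaptosomes and 11 in the hippocampus, where 28.1% and 17.1% of all 4736 genes with 1 symbol did. The enzymes as a whole were thus detected at a share near that of the array or somewhat under it. Signals at or below 0 were read from 55 of the 146 probe sets in synaptosomes and 56 in the hippocampus, or 37.7% and 38.4%, compared with 25.2% and 31.4% of all non-control probe sets.

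The families differed. Of 12 Gst genes, 8 were above background in synaptosomes and 6 in the hippocampus. Of 49 Cyp genes, 9 were above background in synaptosomes and 4 in the hippocampus. Of 10 Ugt genes and of 9 Sult genes, 2 each were above background in synaptosomes and 0 in the hippocampus, and of the 2 Ephx genes 1 was above background on each array, a different one on each. Without the Gst probe sets, 14 of the remaining 121 were above background in synaptosomes and 6 in the hippocampus. At the gene level 9 genes were above background on both arrays, 13 in synaptosomes only, 2 in the hippocampus only and 58 on neither. Over all 4736 genes with 1 symbol, 1333 were above background in synaptosomes, 810 in the hippocampus and 1387 (29.3%) on at least 1 array. Few genes of the whole array were thus above background in the hippocampus only, and the imbalance is not particular to the enzymes. The limit of the hippocampus array was the higher of the 2, and Ephx1 and Gstm2, counted in synaptosomes only, read higher in the hippocampus than in synaptosomes.

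**Figure D1:**
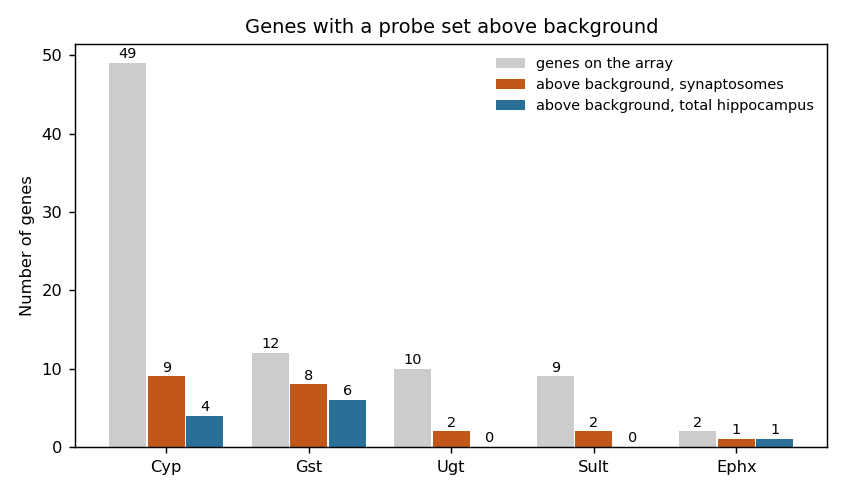
Number of genes (vertical axis) in each enzyme family on the array (grey) and with at least 1 probe set above the background limit in synaptosomes (orange) and in total hippocampus (blue). Gst genes were above background most often, 8 and 6 of 12, and Cyp genes in 9 and 4 of 49.

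Nearest to the limits, Cyp2d3 with 2976 and Cyp2f4 with 3257 lay just above that of the synaptosome array, and a probe set of Cyp3a23-3a1 with 2491 and one of Cyp2e1 with 2295 lay just under it. On the hippocampus array Cyp2e1 with 5568 and a probe set of Cyp2d4 with 5903 lay just above, and Ephx1 with 5213 and Ugt2b with 5177 just under.

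**Figure D2:**
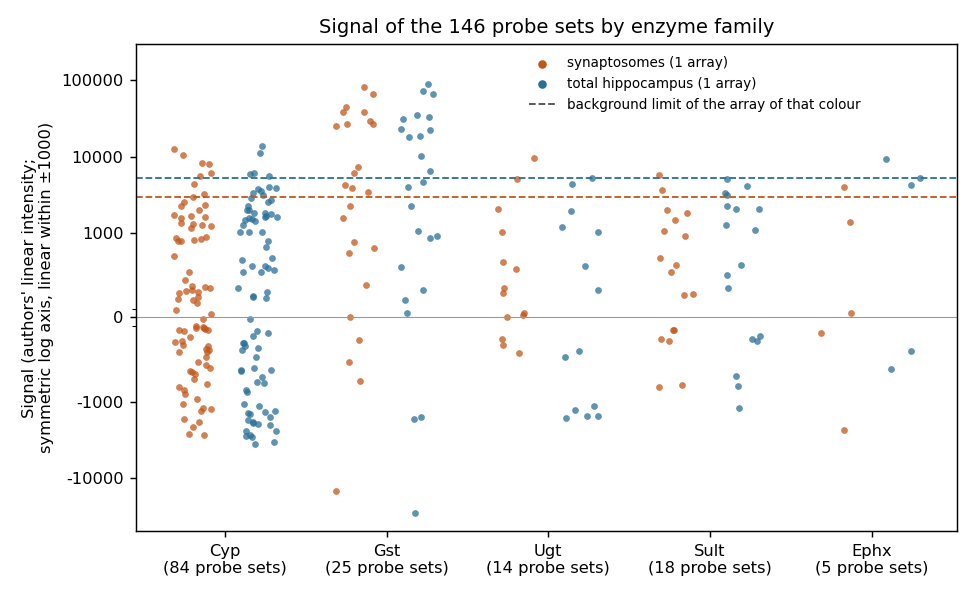
Signal of each of the 146 probe sets (points; vertical symmetric log axis in the authors' linear intensity, linear between -1000 and 1000) by family, in synaptosomes (orange) and total hippocampus (blue), with the background limit of each array as a dashed line of its colour. Most Cyp, Ugt and Sult points lie under the limits on both arrays, and the highest points are Gst probe sets, up to 82578 in synaptosomes and 90778 in the hippocampus.

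The upstream regions of the Gst genes Gstp1, Gstm5 and Gstm7, all above background on both arrays, and of Cyp2c11, a male-specific liver P450 above background on neither, are shown to let the match described next be seen in place. The 3 Gst genes were picked because they hold it, and Cyp2c11 as an example of a liver gene at background, so the difference between them is set by the choice. Each sequence holds the 250 bases before the gene's start, from RefSeq on build GRCr8, 5′ to 3′ along the gene. They lie at chr1:210769706-210769955 (minus strand), chr2:198219519-198219768 (plus strand), chr2:198260320-198260569 (minus strand) and chr1:246174966-246175215 (plus strand). Capitals mark matches on either strand to TGACNNNGC, the core of the antioxidant response element through which Gst genes are known to be induced.
Gstp1: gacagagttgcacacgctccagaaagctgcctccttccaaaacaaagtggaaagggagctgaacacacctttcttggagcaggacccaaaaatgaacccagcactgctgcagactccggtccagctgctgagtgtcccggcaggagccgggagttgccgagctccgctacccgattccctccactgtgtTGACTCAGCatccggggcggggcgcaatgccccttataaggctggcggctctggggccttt
Gstm5: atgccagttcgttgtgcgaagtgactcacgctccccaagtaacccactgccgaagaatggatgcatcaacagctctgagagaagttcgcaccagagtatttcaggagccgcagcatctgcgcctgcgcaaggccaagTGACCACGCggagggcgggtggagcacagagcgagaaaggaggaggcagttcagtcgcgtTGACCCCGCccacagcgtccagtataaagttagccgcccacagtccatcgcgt
Gstm7: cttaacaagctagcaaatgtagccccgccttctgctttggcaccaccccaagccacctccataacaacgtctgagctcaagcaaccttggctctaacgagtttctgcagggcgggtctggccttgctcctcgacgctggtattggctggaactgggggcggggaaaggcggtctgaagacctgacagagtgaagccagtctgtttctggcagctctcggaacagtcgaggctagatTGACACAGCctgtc
Cyp2c11: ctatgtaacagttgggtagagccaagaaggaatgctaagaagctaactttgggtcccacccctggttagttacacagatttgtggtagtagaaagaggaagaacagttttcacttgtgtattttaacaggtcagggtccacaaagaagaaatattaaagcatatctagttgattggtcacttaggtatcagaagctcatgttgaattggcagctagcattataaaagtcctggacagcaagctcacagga
Over the 64 of 82 enzyme genes with an entry in the promoter table, a match was present in 3 of the 9 genes above background on both arrays, which are Gstp1, Gstm5 and Gstm7, and in 3 of the 41 above background on neither, which are Cyp26b1, Cyp4b1 and Gsta3. Gstm1 and Gsta1, also above background on both arrays, held none. Over all 23 genes above background on at least 1 array a match was present in the same 3, or 13.0%. Among all 27457 genes listed there, 10.2% held one, as did 12.3% of the 3872 genes on the array. The letters GCGTG, on either strand the core bound by the aryl hydrocarbon receptor that induces Cyp1 genes, were present in 3 of the 9, 7 of the 23 and 4 of the 41, against 39.0% of the array's genes. Of CpG dinucleotides the 250 bases held a median of 9 in the 9 genes above background on both arrays, of 5 in the 23 and of 2 in the 41 above background on neither, against a median of 14 over the array's genes. A match is a run of letters and not a site of binding, and no test was made of these shares.

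Among the glutathione S-transferases, the mu class was above background with 7 of its 8 probe sets in synaptosomes and 6 in the hippocampus. Its 4 genes here belong to a run of 9 Gstm genes that follow each other in RefSeq with no other protein-coding gene between them, and their similar sequences can share hybridization. Gstm1, the classic mu-class enzyme, read 82578 in synaptosomes and 90778 in the hippocampus with its brightest probe set. Its other probe sets read 66371 and 72232, and 45237 and 66500, in the same order. All 6 signals of Gstm1 were far above the limits, and none of its probe sets differed by 2-fold between the arrays as centred below. After quantile normalization, which replaces signals by values for their ranks, the brightest was 2.89-fold higher in synaptosomes. Its signal was the highest of all 1-symbol probe sets on the synaptosome array, while the hippocampus array reached 263608 among them. That fold thus rests on rank, and the deposited signal of this probe set was the lower in synaptosomes. Gstm5, of the same class, read 29525 in synaptosomes and 22555 in the hippocampus with 1 probe set and 25315 and 18096 with the other. Gstm7 read 27014 and 31177 with its single probe set. Gstm2 was dim, at 3804 in synaptosomes and 4575 in the hippocampus with one design and at 1555 and 2271, under both limits, with the other.

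The alpha class was divided. Gsta1, best known from liver, read 38752, 38715 and 26416 in synaptosomes with its 3 probe sets and 35193, 33125 and 22743 in the hippocampus. All 3 carry the suffix that Affymetrix gave to designs matching several members of a gene family, so the signal cannot be assigned to Gsta1 alone. Gsta4, which conjugates the lipid peroxidation product 4-hydroxynonenal, read 6013 in synaptosomes and 10005 in the hippocampus with 1 probe set and 2268 and 3977, under both limits, with the other. The 3 probe sets of Gsta3 read between -757 and 9 in synaptosomes and between -1698 and 1058 in the hippocampus and were thus at background. A probe set annotated to both Gsta5 and Gsta2, and for that reason not among the 146, read 7858 and 7186, above both limits, and another with these names read -1218 and -683.

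Gstp1, the pi-class enzyme, had the lower signal in synaptosomes in each of 2 designs. The brighter read 7270 in synaptosomes and 18577 in the hippocampus, and the other 3450 and 6545. Gsto1, the omega-class enzyme that also reduces dehydroascorbate, read 4252 in synaptosomes and -1554 in the hippocampus with 1 probe set and 818 and 959 with the other, of which only the first of these 4 signals was above background. Gstt1 and Gstt2 of the theta class were at background throughout, and Gstk1 of the kappa class read 888 and 939 with 1 probe set and -14658 and -28641, the lowest signals of all the enzymes on either array, with the other.

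The Cyp1, Cyp2c and Cyp3a genes, which carry much of the drug oxidation in liver, were at background. All 14 probe sets of the 7 Cyp2c genes were under the limits on both arrays, with signals from -1204 to 1661 in synaptosomes and from -856 to 1818 in the hippocampus. The same held for the 7 probe sets of 4 Cyp3a genes, from -790 to 2491 and from -2369 to 3770, and for the 8 of the Cyp1 genes Cyp1a1, Cyp1a2 and Cyp1b1, from -909 to 911 and from -2871 to 1818. Cyp7a1, the rate-limiting enzyme of bile acid synthesis in liver, read -1056 and -16 in synaptosomes and -24 and -218 in the hippocampus. Among the genes above background on neither array, taking the brightest probe set of each, those with the lowest summed signals were Cyp11a1, Cyp2b12 and Cyp1a1, at -2138, -1240 and -909 in synaptosomes and -1987, -2761 and -2871 in the hippocampus. The brightest of these genes were Cyp3a23-3a1, Cyp2a2 and Sult1b1, at 2491, 1270 and 1818 in synaptosomes and 3770, 4039 and 3167 in the hippocampus. In 16 of the 82 genes, every signal of every probe set was at or below 0.

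Of the P450s above background, 3 were so on both arrays. Cyp2d4, a Cyp2d enzyme known from rat brain, read 8250 in synaptosomes and 10977 in the hippocampus with 1 probe set. With its other probe set it read 204 and 5903, above the limit in the hippocampus only. Cyp2a1, a testosterone hydroxylase of liver, read 10407 in synaptosomes and 13729 in the hippocampus with its single probe set. A probe set shared between Cyp2a2 and Cyp2a1 read 3903 and 3712, above the limit in synaptosomes only, and the one for Cyp2a2 alone was at background. Cyp2e1, the ethanol-oxidizing P450, read 5515 and 5568 with 1 of 3 probe sets, just above the limit in the hippocampus, while the other 2 read 2295 and -147 in synaptosomes and 2548 and -2411 in the hippocampus.

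A further 6 P450s were above background in synaptosomes only, and 1 in the hippocampus only. Cyp4f6, of the subfamily that hydroxylates fatty acids and leukotrienes, read 12617 in synaptosomes and 2646 in the hippocampus, while the 4 other Cyp4f genes were at background on both arrays. Cyp51, lanosterol demethylase of the cholesterol pathway, read 7971 in synaptosomes and 3829 in the hippocampus with its brightest probe set, and its other 4 probe sets were at background. Cyp2b15 read 6153 in synaptosomes and 1610 in the hippocampus with its single probe set. That design carries the same family suffix as those of Gsta1, so the signal cannot be assigned to Cyp2b15 alone. A probe set shared between Cyp2b15 and Cyp2b2 read -2175 and -287. The phenobarbital-inducible Cyp2b2 read 4406 and 2216 with 1 probe set and -1299 and 1987 with the other. Cyp2d3 read 2976 and -2707 and Cyp2f4, a P450 of lung airways, 3257 and 304, both close to the synaptosome limit. Cyp4a3, a fatty acid hydroxylase, read -522 in synaptosomes and 6088 in the hippocampus, and a probe set shared with Cyp4a2 read 1912 and 131. In RefSeq, Cyp2b15, Cyp2g1, Cyp2a3, Cyp2a1, Cyp2a2 and Cyp2f4 follow each other as 6 neighbouring genes, and those above background among them are Cyp2b15, Cyp2a1 and Cyp2f4.

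The steroid, bile acid, vitamin and sterol P450s other than Cyp51 were at background. Cyp11a1, which starts steroid synthesis, read -2138 in synaptosomes and -1987 in the hippocampus, and Cyp19a1, aromatase, -594 and -1052. Cyp7b1, an oxysterol hydroxylase known from hippocampus, read 1576 and 556. Cyp27a1, sterol 27-hydroxylase, read 896 and 3165 with 1 probe set and -2667 and -3600 with the other. Cyp26b1, which breaks down retinoic acid, read 1137 and 832. For these genes a transcript was not detectable at this signal, which does not show that it is absent.

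Neither epoxide hydrolase was above background on both arrays. Ephx2, the soluble enzyme that hydrolyses epoxides of arachidonic acid, read 1375 in synaptosomes and 9247 in the hippocampus with 1 probe set. Its other 3 probe sets were at background, at -183, 49 and -2363 in synaptosomes and 4219, -609 and -399 in the hippocampus. Ephx1, the microsomal enzyme, read 3926 in synaptosomes and 5213 in the hippocampus, the first above its limit and the second just under.

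Glucuronosyltransferases and sulfotransferases above background were few. Ugt8, which makes the galactocerebroside of myelin, read 4997 in synaptosomes and 4416 in the hippocampus with 1 probe set and 344 and 1951 with the other. The probe set of Ugt2b above background read 9620 in synaptosomes and 5177 in the hippocampus, and the other 2 of that gene were at background, at 569 and -332 in synaptosomes and -1127 and -1533 in the hippocampus. Sult1a1, a phenol sulfotransferase, read 3688 and 3362 with 1 probe set and -275 and 1082 with the other. Sult5a1 read 5773 in synaptosomes and 5004 in the hippocampus. The 10 probe sets of the 3 Sult2a genes, hydroxysteroid sulfotransferases of liver, were at background on both arrays. So were both Ugt1a probe sets with a single symbol and the 12 shared by several Ugt1a genes.

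**Figure D3:**
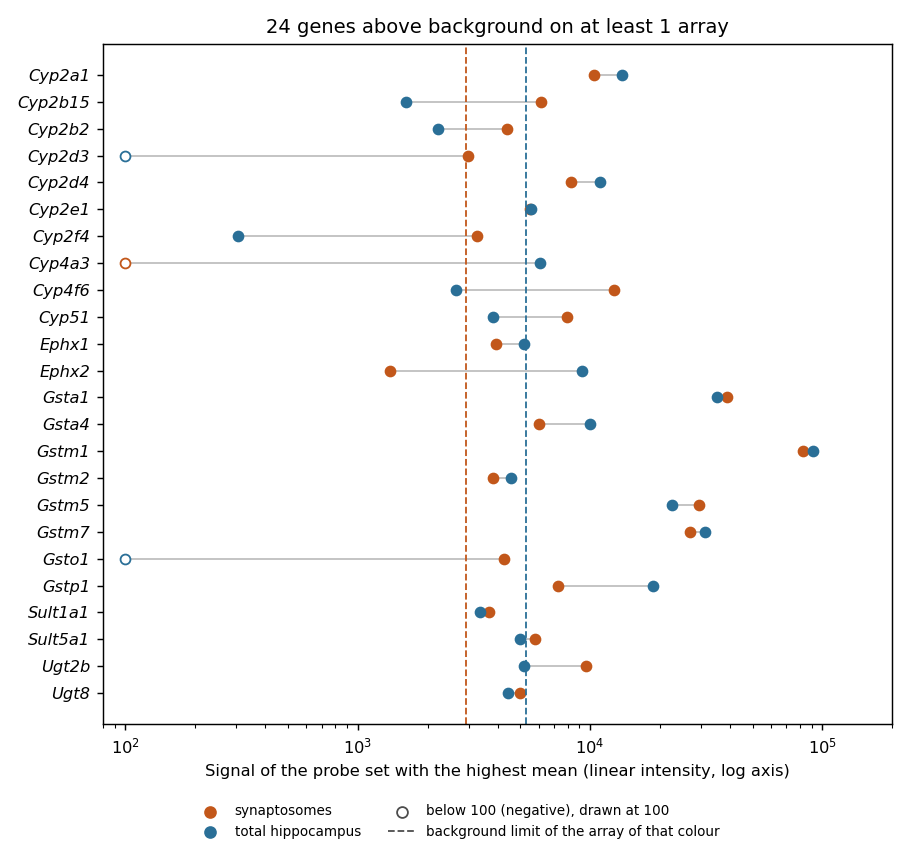
Signal (horizontal log axis, authors' linear intensity) of the brightest probe set of each of the 24 genes above background on at least 1 array, in synaptosomes (orange) and total hippocampus (blue), with each array's background limit dashed in its colour and negative values drawn as open circles at 100. Gstm1, Gsta1, Gstm5 and Gstm7 lie far to the right of both limits on both arrays, and most Cyp, Ugt and Sult genes lie near them.

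For the comparison of synaptosomes with total hippocampus, the question of the study's design, signals under an array's limit were set to it. The log2 ratio of synaptosomes over hippocampus was centred on its median over probe sets above background on both arrays, which multiplies the quotient of the signals by 1.25. Where only 1 array was above background the fold is a bound against the other array's limit, written "at least", and no fold is given where that bound is under 1. The probe set with the highest mean signal stood for its gene. Of the 82 genes 19 allowed a ratio, 9 of them measured on both arrays and 10 as a bound. Of these 19, 2 were at least 2-fold higher in synaptosomes, 2 at least 2-fold lower and 15 lay between. Over all 1108 genes with a ratio, 12.1% were higher and 7.13% lower by this measure, so the counts among the enzymes lie near the background. The median log2 ratio was 0.19 over the 19 and 0.18 over the 1108.

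The higher genes were Cyp4f6, at least 2.99-fold (log2 ratio 1.58), and Ugt2b, at least 2.28-fold (1.19). The lower ones were Ephx2, at least 2.53-fold (-1.34), and Gstp1, 2.04-fold (-1.03). Cyp4f6 rested on its only probe set and Ugt2b and Ephx2 each on 1 of several, while the second probe set of Gstp1 was 1.51-fold lower (-0.60). Without the centring Ugt2b was no longer past 2-fold, Cyp4a3 was at least 2.09-fold lower, and Gstp1 was 2.56-fold lower. With the limit at percentile 99 of the negative values 0 genes were past 2-fold in either direction among the 8 that still allowed a ratio. Over all 540 genes that did so, 9.81% were higher and 4.81% lower.

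**Figure D4:**
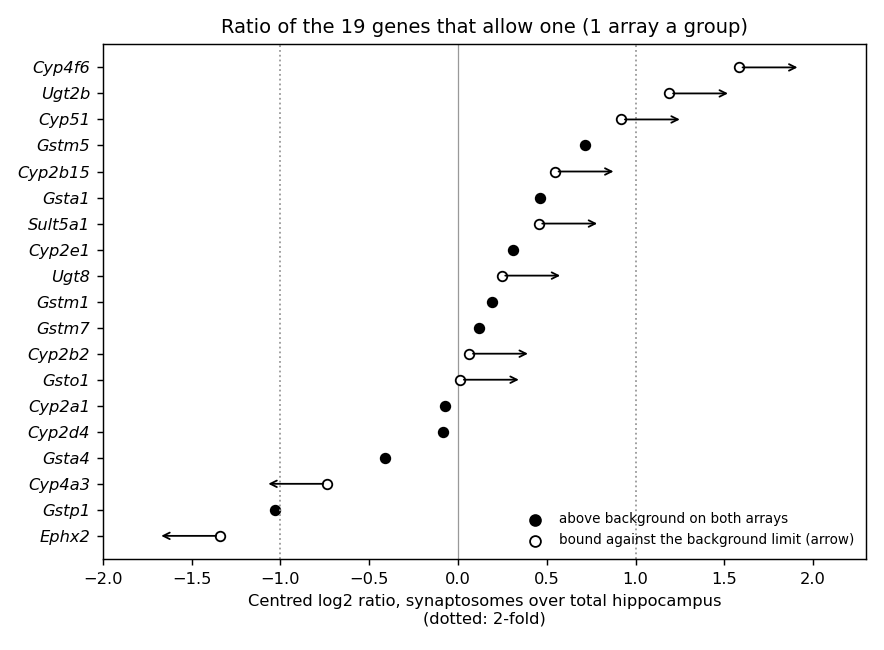
Centred log2 ratio of synaptosomes over total hippocampus (horizontal axis) for the 19 genes that allow one; filled points are above background on both arrays, open points with an arrow are bounds against the background limit, and dotted lines mark 2-fold. Cyp4f6 and Ugt2b lie beyond the line on the right, Ephx2 and Gstp1 beyond the line on the left, and the other 15 between.

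The transferases above background on both arrays, apart from Gstp1, differed by less than 2-fold, except that Gstm1 was past it after quantile normalization, which works on ranks. Gstm1 had a log2 ratio of 0.19, Gstm7 of 0.12, Gsta1 of 0.46 and Gstm5 of 0.71, and Gsta4 of -0.41. The P450s measured on both arrays had log2 ratios of -0.07 for Cyp2a1, -0.09 for Cyp2d4 and 0.31 for Cyp2e1. Cyp51 was at least 1.89-fold higher in synaptosomes, Cyp2b15 at least 1.46-fold, Sult5a1 at least 1.37-fold and Ugt8 at least 1.19-fold, and Cyp4a3 at least 1.67-fold lower. The bounds of Cyp2b2 and Gsto1, at 1.05-fold and 1.01-fold, set almost no limit. The only spread that could be measured was that between probe sets of one gene above background on both arrays, an SD of the log2 ratio of 0.19 over 10 probe sets of 4 enzyme genes and of 0.53 over 344 probe sets of 155 genes on the array. It leaves out animals, preparations and amplification. The ratios of -1.03 for Gstp1 and 0.71 for Gstm5 are larger in size than either SD. So are those of their second probe sets, at -0.60 and 0.81. The ratios of Gsta4, Gsta1 and Cyp2e1 lie between the SDs in size. Those of Gstm7, Cyp2a1 and Cyp2d4 are smaller than both, and that of Gstm1 is about the size of the smaller. Other probe sets of Gsta1, at 0.55 and 0.54, lie just above the SD of 0.53, and the second of Cyp2d4 gave a bound of -0.69. The SD of 0.19 came from probe sets of Gsta1, Gstm1, Gstm5 and Gstp1 themselves.

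Probe sets of one gene often disagreed on detection. Of 40 enzyme genes with several probe sets, 5 had all of them above background on at least 1 array, 25 had none and 10 had some. Those 10 were 66.7% of the 15 with any above background, against 72.9% over all genes on the array with several probe sets.

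Of a list of enzymes with known brain expression, 23 of 32 genes had a probe set with 1 symbol on the array. Of these 14 were above background on at least 1 array, compared with 10 of the 59 enzyme genes not on the list and 29.3% of all genes with 1 symbol. The 14 are Cyp2d4, Cyp2e1, Cyp51, Ephx1, Ephx2, Gsta4, Gstm1, Gstm2, Gstm5, Gstm7, Gsto1, Gstp1, Sult1a1 and Ugt8. Cyp11a1, Cyp19a1, Cyp1b1, Cyp26b1, Cyp27a1, Cyp4f4, Cyp4f5, Cyp7b1 and Gstt1 of the list were at background. The 10 off the list are Cyp2a1, Cyp2b15, Cyp2b2, Cyp2d3, Cyp2f4, Cyp4a3, Cyp4f6, Gsta1, Sult5a1 and Ugt2b. The list holds Cyp4f4 and Cyp4f5 but not Cyp4f6, and a gene off it may still be expressed in brain. The list was drawn up with earlier results of these arrays known, so its count is a description.

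Genes that supply, feed and regulate these enzymes, with other drug-metabolizing enzymes and transporters outside the rule, were read from a list of 54. Of these 40 were on the array. At least 1 array was above background for 14 of them, beside 29.3% of all genes with 1 symbol. Of the 11 with a ratio 0 were past 2-fold in either direction, beside the 12.1% and 7.13% over all genes. Without the centring Por, Mgst3 and Nqo1 were at least 2-fold lower in synaptosomes, where 15.7% of all genes were. The electron donors of the P450s were divided. Por, the P450 reductase, read 4780 in synaptosomes and 10183 in the hippocampus with its brightest probe set, and Cyb5a, cytochrome b5, 14942 and 14387. Another probe set of Por read 3932 and 2670, above the limit in synaptosomes only. Another of Cyb5a read 10189 and 18113, above both limits. The remaining probe set of each of these genes was at background. Fdx1, which feeds the mitochondrial P450s, and Cyb5b were at background with every probe set. Mgst3, a microsomal glutathione transferase, read 40470 and 96968, and Nqo1, a quinone reductase, 3909 and 9226. The other probe set of Nqo1 was at background, at 330 and -796. Papss1, which makes the sulfate donor of the Sult enzymes, read 7701 and 6040. The regulators Ahr, Arnt, Hnf4a, Rxra and Nfe2l2 were at background with every probe set.

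Markers of liver and of the brain's cell types were read on the same arrays. Of 16 hepatocyte markers on the array 1, Apoc3, was above background, and Alb, which encodes albumin, read at most 2667 in synaptosomes and 1349 in the hippocampus with its 4 probe sets. The summed signal of the list, 1 probe set a gene and negative values taken as 0, was 12739 in synaptosomes and 23571 in the hippocampus. Of 7 astrocyte markers 6 were above background in synaptosomes and 5 in the hippocampus, with summed signals of 208142 and 218382. Of 6 oligodendrocyte markers 5 were above background on each array, 1 (Cnp) was at least 2-fold higher in synaptosomes and 3 (Mbp, Mobp and Mog) at least 2-fold lower, and the list summed to 29296 and 49584. Of 7 neuronal markers 4 were above background on each array. The others, Camk2a, Slc17a7 and Syt1, were at background with every probe set. For any gene of this report, a signal at background does not show that its transcript is absent. With their brightest probe sets Syp, Gad1 and Nefl were 1.85-fold, 1.80-fold and 1.68-fold higher in synaptosomes and Snap25 was 2.66-fold lower. Of the other lists, S100b among astrocyte markers was 2.81-fold and Aif1 among microglial ones 2.20-fold higher, and Flt1 among endothelial ones at least 2.06-fold lower. Without the centring Cnp and Aif1 were no longer past 2-fold, while S100b, Snap25, Mbp, Mobp, Mog and Flt1 still were. The endothelial list summed to 8196 and 15106 and the choroid plexus list to 6851 and 8492, and the microglial list to 11275 and 7059, each with 1 gene above background on an array. The part of any of these cell types in the enzyme signals, including the lower Gstp1 and Ephx2 in synaptosomes, was not tested. Less material of a cell type in the fraction cannot be told apart here from less of a transcript within that material.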

How the data were processed

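Column-purified total RNA was turned into cDNA with the SMART kit and an oligo(dT) primer bearing a T7 sequence, and this was transcribed into biotinylated cRNA, per the labels' protocols. The authors deposited linear intensity values for 8799 probe sets, 59 of them controls; how they were scanned, background-corrected and scaled is not given in the sources used here (labels, table and annotation). The mean without the lowest and highest 2% was 2504 for synaptosomes and 2505 for total hippocampus, so no scaling was added. Negative values were kept, and their sizes set the background limits. With 1 array a group their number limits the precision.

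Gene names came from the platform annotation; all 82 gene identifiers were found in RefSeq of assembly GRCr8, which changed 0 symbols. 34 probe sets with several symbols, of which 1 or more match, were left out. Every gene above background on an array is named; others are named if on the brain list or at the ends of the range. Of the rest, further genes were chosen after their values were seen. Members and lists were chosen with earlier results of these data known. Alternatives were the limit at percentile 90 or 99 or at the pooled median, no centring, quantile normalization, no suffixed probe sets and single probe sets. Python 3.11.15 was used with pandas 2.3.3, NumPy 2.4.6 and, for plots, matplotlib 3.10.9. The background limits, the centring and the 2-fold calls were tried on simulated signals, and the other steps were not.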

Additional observations from a re-analysis of the deposited data

How the results depend on the processing

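No paired analysis was possible because there is 1 array per group and the labels give no replicate numbers, and no replicate could be left out. Against 28 probe sets above background in synaptosomes and 18 in the hippocampus, the limit at percentile 99 of the negative sizes gave 18 and 11, the limit at percentile 90 gave 33 and 29, and a limit at the pooled median, a signal of 846, gave 58 and 67. Without suffixed probe sets 5 and 3 of 49 were above background. The shares of all probe sets above background in these settings are not given here, so the shifts are not particular to the enzymes. Next come the genes higher and lower, with the share of all those with a ratio in that setting in brackets. Against 2 and 2 of 19 (12.1% and 7.13%), percentile 90 gave 4 and 3 of 26 (13.0% and 8.38%). Percentile 99 gave 0 and 0 of 8 (9.81% and 4.81%), and no centring 1 and 3 of 16 (5.78% and 15.7%). Quantile normalization gave 4 and 2 of 24 (11.4% and 3.71%), with Gstm1 2.89-fold higher by its rank. The pooled-median floor with a filter on the mean level gave 11 and 9 of 45 (19.1% and 14.5%). The lack of suffixed probe sets gave 1 and 0 of 5 (12.1% and 7.1%). Counting each probe set on its own gave 2 and 2 of 26 (11.9% and 7.48%). Cyp4f6 was at least 2-fold higher in each of these settings except percentile 99, with folds or bounds from 2.39 to 5.37. Fewer genes allow a ratio under a stricter limit; the other causes were not tested.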

Other observations

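Of 34 probe sets that name several enzymes, 3 were above background in synaptosomes and 1 in the hippocampus, against 23.9% and 14.7% of all non-control probe sets. Among the 146, designs with a suffix for shared or trimmed sequences were above background on at least 1 array in 15 of 64 cases for the s suffix, 4 of 17 for f, 4 of 10 for g and 1 of 5 for i, and those with no suffix in 7 of 49. Over all probe sets with 1 symbol, 1750 of 7006 were above background on at least 1 array. Shares by suffix over the array are not given here, so these counts describe the 146 only. A probe set for Cyp2b2 and Cyp2b1 read 4163 in synaptosomes and 5011 in the hippocampus, and the probe sets for Cyp2b2 alone read 4406 and 2216, and -1299 and 1987.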
